A study of Homo sapiens with 11 samples.

Results

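The 43 genes described here form the NF-kB module of HK2 cells: the subunits of the transcription factor NF-kB, its inhibitors, and the chemokine, cytokine and other genes for which NF-kB is best known. They were chosen by name, and the rule used no measured value, although earlier results of these data were known when the list was made. All 43 were found among the 58288 genes of the RNA-seq data and among the 19646 protein-coding genes matched to the annotation. HK2 is an immortalised line of human proximal tubule epithelium, grown here in DMEM-F12 with serum, antibiotics and a little DMSO, and every sample came from that single condition with no further treatment named. H3K4me3, H3K27ac and H3K27me3 were mapped by ChIP-seq in 2 replicates each, and RNA was measured in 2 libraries. Nothing in the labels says that replicates came from separate cultures, so their spread may be technical. With 1 condition there is no treated group, and whether NF-kB signalling was at rest was not measured.

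NF-kB proteins are held in the cytoplasm by inhibitors of the IkB family until a receptor for TNF, interleukin 1 or a microbial product activates the IkB kinase, which marks the inhibitor for destruction. The freed dimers enter the nucleus and switch on chemokines that draw neutrophils and lymphocytes, cytokines of the acute phase, adhesion molecules, and also the inhibitors themselves, which closes a feedback loop. In kidney tubules the pathway is known from acute injury and inflammation, when epithelial cells release such chemokines. H3K4me3 marks active or poised promoters, H3K27ac marks active promoters and enhancers, and H3K27me3 marks regions held silent by Polycomb.

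The promoter sequences are shown first. The NF-kB consensus was searched on both strands as GGGRNNYYCC, where R is A or G, Y is C or T and N is any base. The window from 250 bases before to 50 bases after the canonical start held a match in 23 of the 43 genes (53.5%). This compares with 12.7% of the 19646 protein-coding genes. Many of the genes were listed because they are known targets of NF-kB, so this count is not independent of how they were chosen. A match is a description of the letters and not a bound site. In 16 genes a match lay entirely within the last 100 bases before the start, against 4.45% of protein-coding genes. The neutrophil chemokines of chromosome 4 open the set, because 5 of these 6 genes carry the same 10 bases on the gene strand, GGGAATTTCC. Each line gives 30 bases of GRCh37 on the gene's strand, with the matched bases in capitals.

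CXCL1 (chr4:74735021-74735050, + strand): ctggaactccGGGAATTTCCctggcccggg

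CXCL2 (chr4:74964971-74965000, - strand): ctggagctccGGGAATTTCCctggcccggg

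CXCL3 (chr4:74904466-74904495, - strand): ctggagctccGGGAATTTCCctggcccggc

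CXCL5 (chr4:74864466-74864495, - strand): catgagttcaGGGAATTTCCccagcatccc

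CXCL6 (chr4:74702295-74702324, + strand): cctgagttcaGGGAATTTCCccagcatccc

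The match began 79 bases before the start in CXCL1 and CXCL3, 78 in CXCL2, 91 in CXCL5 and 90 in CXCL6. Over 100 bases laid on this match without gaps, CXCL1 and CXCL3 were identical at 93 positions, and so were CXCL5 and CXCL6. CXCL1 and CXCL2 were identical at 76 of them, while CXCL1 and CXCL5 were identical at 39. CXCL2 lacks a base of CXCL1 shortly after the match, and the offset past it lowers such an ungapped count. CXCL8, the sixth gene, had no match to the consensus in its window. It is printed from 250 to 51 bases before the start (chr4:74606036-74606235, + strand), the stretch free of annotated exons, with a match to the AP-1 motif TGANTCA in capitals. The stretch also holds tggaatttcc, which differs from the consensus only at its first base and was therefore not counted. The window of ICAM1 holds tggaaattcc, which differs in the same way.

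CXCL8: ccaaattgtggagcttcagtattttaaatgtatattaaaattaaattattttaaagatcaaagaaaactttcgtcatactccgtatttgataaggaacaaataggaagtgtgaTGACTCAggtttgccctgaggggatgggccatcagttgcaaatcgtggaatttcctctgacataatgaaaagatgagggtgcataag

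The longer upstream stretches of CXCL1 (chr4:74734860-74735109, + strand) and CXCL2 (chr4:74964914-74965119, - strand) are given because CXCL1 was listed at 0 in the RNA-seq data and CXCL2 was not. The capitals mark 2 overlapping matches on opposite strands in each.

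CXCL1: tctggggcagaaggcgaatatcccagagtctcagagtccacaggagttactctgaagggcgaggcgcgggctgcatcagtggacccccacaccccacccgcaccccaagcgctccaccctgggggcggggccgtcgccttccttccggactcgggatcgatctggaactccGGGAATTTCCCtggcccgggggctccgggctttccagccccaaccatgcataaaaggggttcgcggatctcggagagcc

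CXCL2: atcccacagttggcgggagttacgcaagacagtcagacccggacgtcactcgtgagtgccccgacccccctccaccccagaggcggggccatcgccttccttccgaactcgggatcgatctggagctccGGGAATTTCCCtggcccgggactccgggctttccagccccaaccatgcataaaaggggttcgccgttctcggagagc

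The genes that encode NF-kB and its inhibitors carried matches of their own, which are the next set shown, again as 30 bases with the match in capitals. Where the match lies on the opposite strand, the capitals give its complement as read on the gene's strand.

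NFKB1 (chr4:103422457-103422486, + strand): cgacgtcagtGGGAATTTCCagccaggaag

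NFKB2 (chr10:104155431-104155460, + strand): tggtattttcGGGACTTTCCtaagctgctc

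RELB (chr19:45504653-45504682, + strand): cggcggcgccGGGGAATTCCgccgccccgc

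REL (chr2:61108652-61108681, + strand): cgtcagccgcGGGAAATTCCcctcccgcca

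NFKBIA (chr14:35874017-35874046, - strand): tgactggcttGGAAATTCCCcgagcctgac

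TNFAIP3 (chr6:138188331-138188360, + strand): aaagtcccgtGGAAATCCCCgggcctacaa

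RELA was the subunit gene without a match. Among cytokine genes, IL6 had a match 73 bases before the start and CCL20 had one 79 bases before it, on the opposite strand.

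IL6 (chr7:22766736-22766765, + strand): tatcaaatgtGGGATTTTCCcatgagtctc

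CCL20 (chr2:228678469-228678498, + strand): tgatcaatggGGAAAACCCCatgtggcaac

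The consensus did not separate the genes that passed an RNA level of 1 FPKM from the others. Of the 27 genes at 1 FPKM or more in both libraries, 15 held a match (55.6%), and of the other 16 genes, 8 did (50%). CXCL8 and ICAM1, each with a stretch that differs from the consensus only at the first base, are among the 27 and were counted as without a match. Genes under 1 FPKM in both libraries that held a match included CXCL10 and CCL5 with 2 places each, CXCL11, CXCL1, CXCL6 and SAA1. The AP-1 motif TGANTCA was found in 5 of the 43 windows, CXCL8, CXCL11, NFKBIE, IL1A and IL11, against 5.41% of protein-coding genes. The TATA box letters TATAAA, also searched on both strands, were found in 14 windows (32.6%), against 9.68% of protein-coding genes, and these were mostly cytokine, chemokine and adhesion genes such as CXCL8, CCL20, LIF, TNF, TNFSF10 and ICAM1. No subunit gene held TATAAA.

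RNA levels are given as FPKM, fragments per kilobase of transcript scaled to the mapped fragments of the library, summed over the transcripts of a gene, first for library 1 and then for library 2. FPKM is a measure per length, so levels of different genes can be set side by side. In bulk RNA, fewer cells that use a gene and less RNA per cell cannot be told apart. A gene was called expressed at 1 FPKM or more in both libraries. This held for 27 of the 43 genes (62.8%) against 58.8% of protein-coding genes, so the share of expressed genes was near the background. The median level of the 43 genes was 6.42 FPKM, against 3.32 FPKM over all protein-coding genes, and the range ran from 0 to a mean of 117 FPKM for IL32. At the ends of this range, 13 genes were at 20 FPKM or more in both libraries and 10 genes had a mean under 0.1 FPKM.

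**Figure D1:**
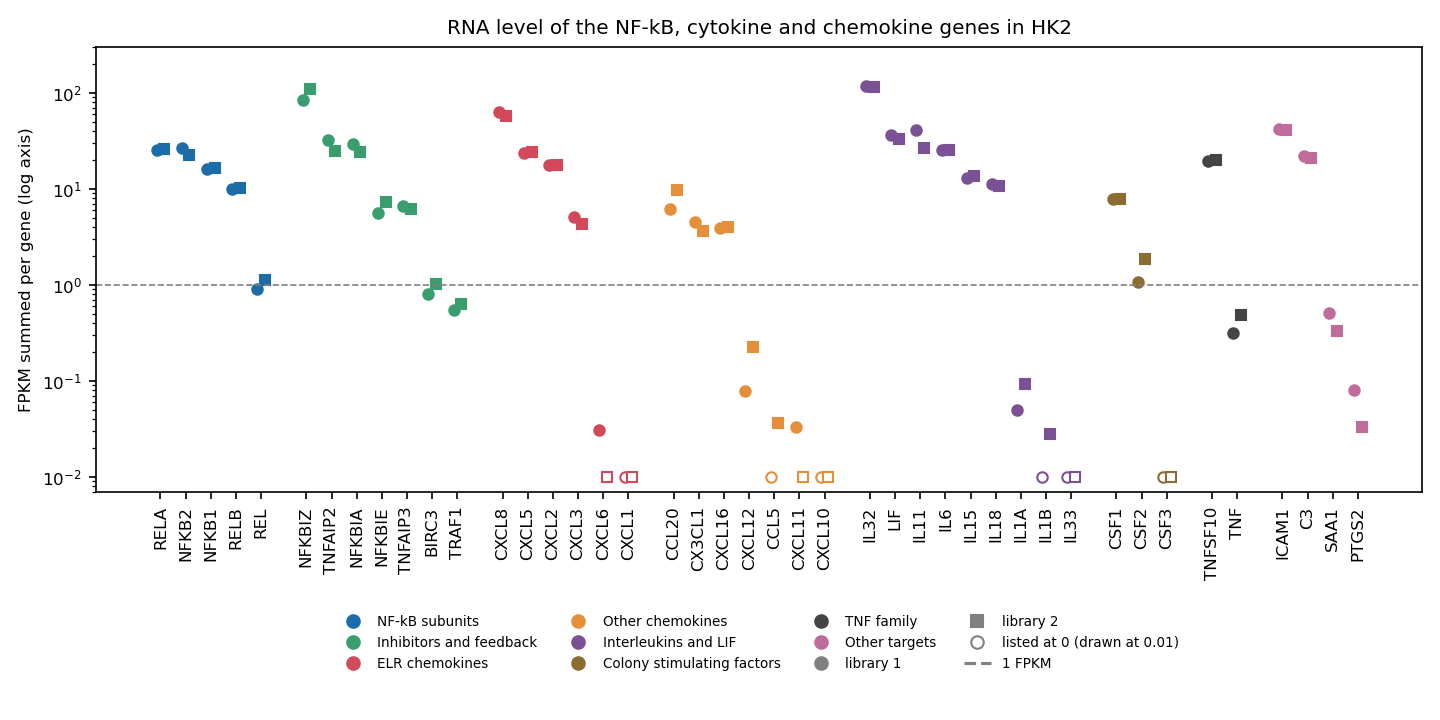
FPKM of the 43 genes on a log axis, grouped by role and ordered by level within each role, with circles for library 1 and squares for library 2. Open symbols mark values listed at 0, drawn at 0.01, and the dashed line marks 1 FPKM. The 4 genes at 0 in both libraries are CXCL1, CXCL10, IL33 and CSF3.

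Of the 5 subunits of NF-kB, 4 were expressed. RELA, which encodes the transactivating p65 subunit, stood at 25.4 and 25.7 FPKM. NFKB1, the gene of the p105 precursor of p50, stood at 16.1 and 16.3 FPKM. NFKB2, the gene of the p100 precursor of p52 in the non-canonical pathway, stood at 26.8 and 22.8 FPKM. RELB, the partner of p52, was lower at 10.0 and 10.2 FPKM, below both libraries of RELA, NFKB1 and NFKB2. REL, the subunit best known from lymphocytes, was lowest at 0.904 and 1.11 FPKM, on either side of the threshold. Reads of REL are uncertain, since 50.9% of the 100-base words of its canonical transcript also occur in other transcripts.

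Of the 7 inhibitors and feedback genes, 5 were expressed. NFKBIZ, an atypical nuclear IkB protein that is needed for a subset of secondary target genes, was the highest with 83.7 and 109 FPKM. NFKBIA, the gene of the classical inhibitor IkB-alpha, had 29.5 and 24.0 FPKM. TNFAIP2, a TNF-inducible gene, had 32.5 and 24.8 FPKM. The means of these 3 genes were above the mean of every subunit gene, although single libraries of NFKBIA and TNFAIP2 overlapped with those of RELA and NFKB2. The inhibitor gene NFKBIE and the gene of the deubiquitinase A20, TNFAIP3, stood near each other, with 5.61 and 7.23 FPKM for the first and 6.62 and 6.10 FPKM for the second. The 2 genes that were not called expressed act on the TNF receptor complex: BIRC3, which encodes the ubiquitin ligase cIAP2, had 0.803 and 1.03 FPKM, and the adaptor gene TRAF1 had 0.542 and 0.638 FPKM.

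The 6 chemokines with the ELR motif attract neutrophils through CXCR1 and CXCR2, and 4 of them were expressed. CXCL8 (ENSG00000169429), which encodes interleukin 8, was highest at 62.9 and 56.9 FPKM. CXCL5 followed with 23.6 and 24.3 FPKM, then CXCL2 with 17.7 and 17.7 FPKM, and CXCL3 with 5.07 and 4.28 FPKM. The libraries agreed closely enough that none of these 4 genes overlapped with the next. CXCL6 was near the limit of detection at 0.0308 FPKM in library 1 and 0 in library 2, where 0.0308 FPKM stood for 0.300 kb of aligned bases. CXCL1 (ENSG00000163739) was listed at 0 in both libraries, in contrast to CXCL2 and CXCL3, whose promoters resemble its own. No 100-base word of the canonical CXCL1, CXCL2 or CXCL3 transcript was found in another gene's canonical transcript. A value of exactly 0 can be a failed estimate, and of the 10248 protein-coding genes with active promoter marks 75 were listed at 0 in both libraries.

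The 7 other chemokines included 3 that were expressed. CCL20, which attracts cells with the receptor CCR6, had 6.16 and 9.81 FPKM. CX3CL1, the membrane-bound chemokine fractalkine, had 4.47 and 3.68 FPKM. CXCL16, also made as a membrane protein, had 3.87 and 4.05 FPKM, between the values of CX3CL1. The interferon-inducible T cell chemokines were at or near 0: CXCL10 was listed at 0 in both libraries, CXCL11 had 0.0329 and 0 FPKM, and CCL5 had 0 and 0.0368 FPKM. CXCL12, a homeostatic chemokine of stroma, had 0.0787 and 0.225 FPKM.

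Of the 9 genes of the interleukin group, which includes LIF, 6 were expressed. IL32, a proinflammatory cytokine gene, had the highest level of all 43 genes with 118 and 116 FPKM. The 3 genes of the IL6 family came next: LIF at 36.4 and 32.7 FPKM, IL11 at 40.6 and 26.4 FPKM, and IL6 at 25.5 and 25.4 FPKM. IL15, a growth factor for natural killer and memory T cells, had 12.9 and 13.6 FPKM. Of the IL1 family, IL18 stood alone with 11.2 and 10.6 FPKM. The others of that family were nearly silent, with 0.0493 and 0.0938 FPKM for IL1A, 0 and 0.0283 FPKM for IL1B, and 0 in both libraries for IL33.

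Among the colony stimulating factors, CSF1, the macrophage growth factor gene, had 7.79 and 7.76 FPKM. CSF2, which encodes GM-CSF, was low but called expressed with 1.07 and 1.87 FPKM, and CSF3, which encodes G-CSF, was listed at 0 in both libraries. In the TNF family, TNFSF10, the gene of the death ligand TRAIL, had 19.5 and 19.8 FPKM. TNF itself, the best known inducer of the pathway, had 0.313 and 0.488 FPKM. Of the remaining targets, the adhesion molecule gene ICAM1 had 41.9 and 41.4 FPKM and the complement gene C3 had 21.9 and 21.0 FPKM. The acute phase gene SAA1 had 0.515 and 0.330 FPKM, and 20.8% of the 100-base words of its transcript are shared with SAA2. PTGS2, which encodes the inducible cyclooxygenase COX-2, had 0.0808 and 0.0333 FPKM.

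The spread between the libraries was small for most of these genes. Among the 28 genes with a mean of 1 FPKM or more, the median absolute log2 ratio of library 2 to library 1 was 0.10. By over 1.5-fold, 3 genes differed, IL11, CCL20 and CSF2 (10.7%), against 5.93% of protein-coding genes at that level. IL11 shows what the sum over transcripts can do: its FPKM in library 2 was 0.651 times that in library 1, while its aligned bases went from 314 kb to 267 kb. A short IL11 transcript of 1201 bases took 71.5% of the gene's FPKM in library 1 and 26.7% in library 2, and a longer one of 2281 bases took 19.0% and 63.1%. For IL6, the transcript with 57.9% of the FPKM in library 1 was listed at 0 in library 2, while the sums over the gene were nearly the same. Levels of single transcripts were therefore not compared.

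Promoters were scored by a peak within 1 kb of any annotated start in both replicates of a mark. H3K4me3 was found at 24 of the 43 genes (55.8%), against 70.3% of protein-coding genes. In replicate 1 alone it was found at 30 (69.8%), against 71.9%, and in replicate 2 alone at 29 (67.4%), against 78.0%. With a peak in either replicate it was found at 35 (81.4%), against 79.6%. H3K27ac was found at 26 (60.5%), against 55.0%. H3K27me3 was found at 4 (9.30%), against 11.4%. Active promoter marks, meaning H3K4me3 and H3K27ac without H3K27me3, were found at 20 genes (46.5%), against 52.2% of protein-coding genes. The share with active promoter marks was near the background.

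**Figure D2:**
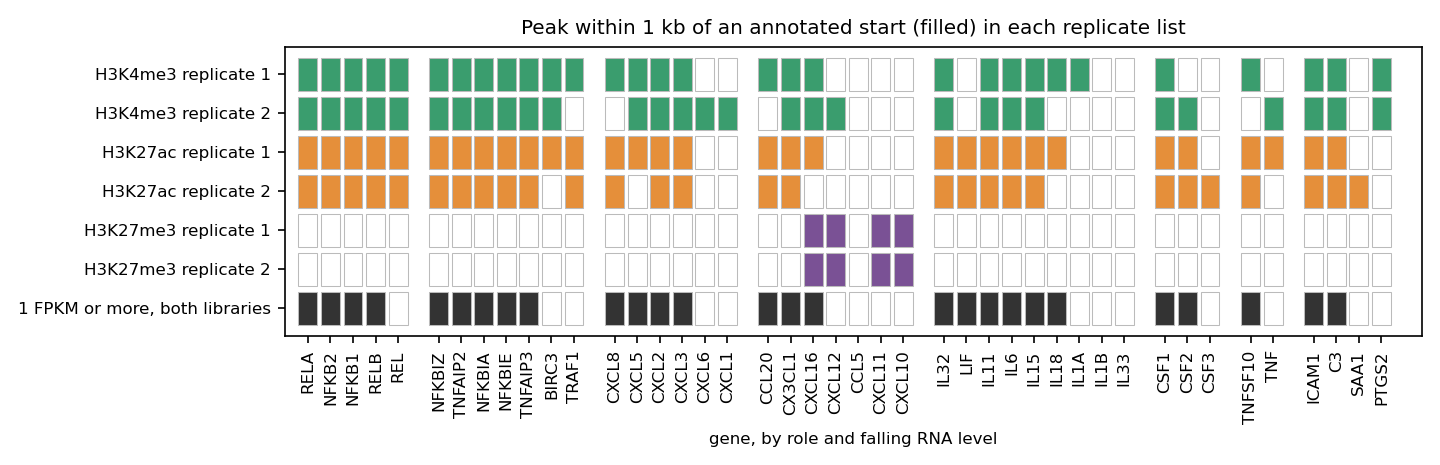
Presence of a peak within 1 kb of an annotated start in each of the 6 replicate lists (filled squares, one column per gene, grouped by role), with the bottom row filled where RNA was at 1 FPKM or more in both libraries. All 5 subunit genes carry H3K4me3 and H3K27ac in every replicate, and H3K27me3 is limited to 4 chemokine genes outside the ELR group.

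All 5 subunit genes had active promoter marks, REL included, which makes REL the only gene of the 43 with these marks that was not called expressed. The same marks were found at 5 of the 7 inhibitors and feedback genes, NFKBIA, NFKBIE, NFKBIZ, TNFAIP3 and TNFAIP2. They were found at 2 of the 6 ELR chemokines, CXCL2 and CXCL3, and at 1 of the 7 others, CX3CL1. Of the interleukin group, IL6, IL11, IL15 and IL32 had them, and CSF1, ICAM1 and C3 did so among the rest. Of the 20 genes with active marks 19 were expressed, against 92.6% of all protein-coding genes with these marks. Their median level was 19.6 FPKM, against 0.401 FPKM for the 23 genes without. Over all protein-coding genes the same medians were 11.7 and 0.0268 FPKM, so a gap of this kind is general. Without active marks, 34.8% of the genes here were expressed, against 21.9% of protein-coding genes.

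H3K27me3 was found at CXCL10, CXCL11, CXCL12 and CXCL16. The peak at CXCL11 in replicate 2 was 480 bp wide, and that at CXCL16 in replicate 1 was 404 bp wide. With peaks under 500 bp left out, the count of genes fell to 2, against 9.99% of protein-coding genes. At CXCL10 and CXCL11, which start 12.6 kb from each other, H3K27me3 peaks covered 40.5 kb and 47.6 kb of the 100 kb around the start in replicate 1, and 8.46 kb and 9.99 kb in replicate 2. Because these windows overlap, the 2 genes share most of that stretch. At CXCL12 the covered length was 5.59 kb and 2.47 kb. All 3 of these genes were at 0.225 FPKM or less in both libraries. CXCL16 was the exception, with H3K4me3 in both replicates, H3K27ac in replicate 1 and RNA at 3.87 and 4.05 FPKM beside H3K27me3. CCL5, IL1B and IL33 carried none of the 3 marks in any replicate. Among genes under 1 FPKM in both libraries, H3K27me3 was therefore present at some and absent at others.

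8 genes were expressed without the full set of active marks: CXCL5, CXCL8, CXCL16, CCL20, IL18, LIF, CSF2 and TNFSF10. At most of them a single replicate lacked a peak. H3K4me3 was present in 1 replicate only at 11 of the 43 genes (25.6%), against 9.35% of protein-coding genes, 6 of them in replicate 1 and 5 in replicate 2. CXCL8 had a peak of 3325 bp over its start in replicate 1, and the nearest in replicate 2 lay 95961 bp away. CCL20, IL18 and TNFSF10 likewise had H3K4me3 in replicate 1 only, and CSF2, at chr5:131409482-131411863, in replicate 2 only. The lists differ in kind, since the H3K4me3 list of replicate 1 held 28615 peaks on the main chromosomes with a median width of 1194 bp and that of replicate 2 held 73505 with a median of 434 bp. Whether this has a part in the missing peaks was not tested.

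H3K27ac in both replicates, where H3K4me3 was missing from at least 1 replicate, was found at 6 genes (14.0%), against 1.58% of protein-coding genes. These were TRAF1, CXCL8, CCL20, LIF, CSF2 and TNFSF10. The count fell to 3 when a peak in either replicate was accepted, namely LIF, CSF3 and SAA1, against 1.66% of protein-coding genes under that rule, since the other genes of the 6 have H3K4me3 in a single list. With replicate 2 of each mark left out the count was also 3, against 2.36% of protein-coding genes. This rule and its count were chosen after the values had been seen. LIF was the clearest of them, with no H3K4me3 within 1 kb in either replicate at 36.4 and 32.7 FPKM. The nearest H3K4me3 peaks to the canonical LIF start lay at 7273 bp in replicate 1 (chr22:30650021-30654620) and at 8955 bp in replicate 2 (chr22:30651703-30653742).

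H3K27ac away from the promoter was counted where peaks of both replicates overlapped within 50 kb of a start and more than 1 kb from every start of the gene. This was found at 37 genes (86.0%), against 69.1% of protein-coding genes. All 27 expressed genes had such a peak, and 10 of the 16 others did. Expressed genes in general have more H3K27ac nearby. With the promoter included, 661 of 11549 expressed protein-coding genes had no shared H3K27ac within 50 kb of the canonical start, and 3957 of the 8097 others had none. Among the genes here, 0 of the 27 and 5 of the 16 had none. The 6 genes without one were REL, CXCL12, CCL5, IL33, SAA1 and PTGS2. A peak within 50 kb is a matter of distance and not a proven link to the gene, and 10 of the 43 genes share windows with another because they lie in clusters, such as CXCL1 and CXCL6 or IL1A and IL1B.

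The length of sequence covered by H3K27ac set some genes apart. Within 50 kb of the canonical start, the bases covered in both replicates had a median of 4.37 kb over the 43 genes, against 1.61 kb over all protein-coding genes. Among expressed genes only, the medians were 6.57 kb for the 27 genes here and 2.49 kb for all 11549 expressed protein-coding genes. Among genes not expressed they were 1.43 kb and 0.295 kb. The H3K27ac lists also differ, with 107 Mb covered in replicate 1 and 38.9 Mb in replicate 2. Shared lengths therefore lie near those of replicate 2. For the 27 expressed genes the median was 15.7 kb in replicate 1 and 6.60 kb in replicate 2. A peak in replicate 1 only is to be read with this difference. A shared length of 10 kb or more was found at 13 genes (30.2%), against 5.41% of protein-coding genes, a threshold that was also chosen after seeing values. With H3K27ac replicate 2 left out, 23 genes passed it, against 26.2% of protein-coding genes. Of the 13 genes, 11 were expressed, and CXCL1 and TNF were the others.

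**Figure D3:**
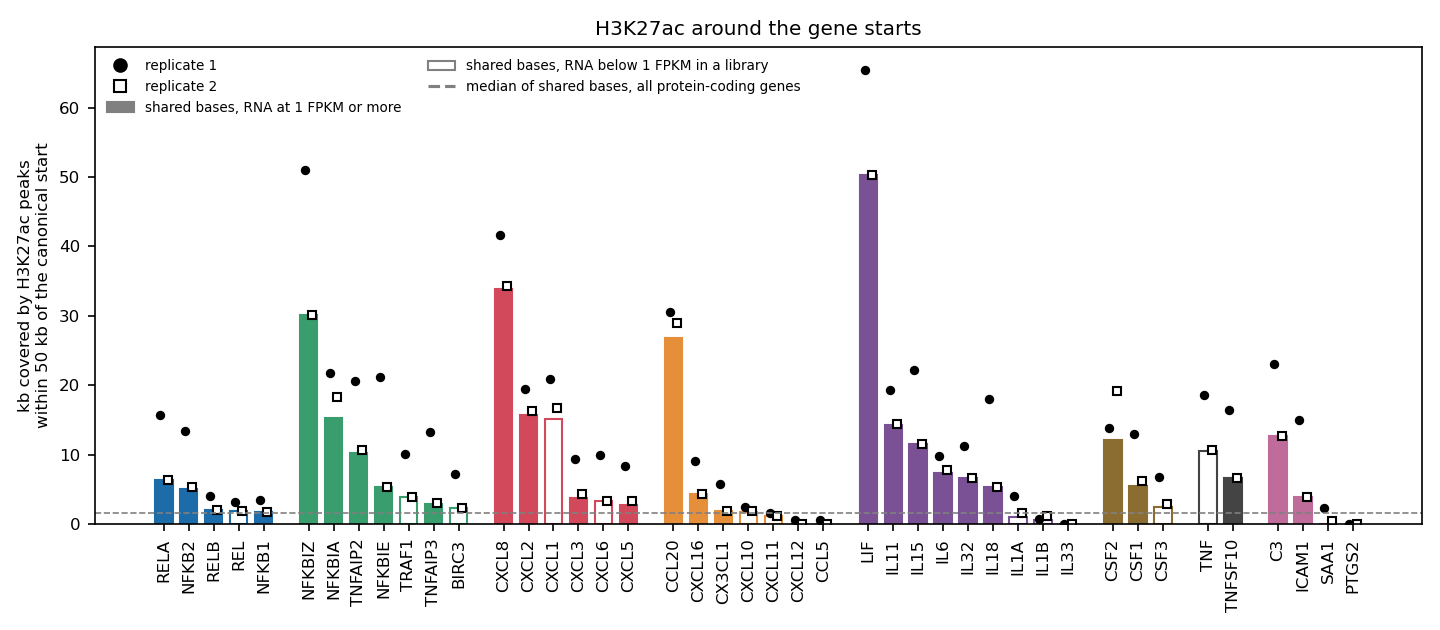
Kilobases covered by H3K27ac peaks within 50 kb of the canonical start of each gene, with bars for the bases shared by both replicates, circles for replicate 1 and squares for replicate 2. Bars are filled for genes at 1 FPKM or more in both libraries, and the dashed line marks the median of all protein-coding genes at 1.61 kb. LIF, CXCL8, NFKBIZ and CCL20 stand above 20 kb.

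LIF, at chr22:30636442-30642748, had the most, with 65.5 kb covered in replicate 1, 50.3 kb in replicate 2 and 50.3 kb shared. A single replicate 1 peak of 37090 bp (chr22:30618567-30655656) spanned the gene. CXCL8, at chr4:74606236-74609433, had 41.7 kb and 34.4 kb with 33.9 kb shared. NFKBIZ, at chr3:101546835-101579866, had 51.0 kb and 30.2 kb with 30.2 kb shared. CCL20, at chr2:228670455-228682280, had 30.5 kb and 29.0 kb with 26.8 kb shared. Of these 4 genes only NFKBIZ had H3K4me3 at its promoter in both replicates. The next were CXCL2 with 15.7 kb shared, NFKBIA with 15.3 kb, CXCL1 with 15.2 kb and IL11 with 14.3 kb.

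Single genes differed in how the length of H3K27ac stood beside the RNA level. CCL20, with 26.8 kb shared, had 6.16 and 9.81 FPKM, whereas IL32, with 118 and 116 FPKM, had 6.62 kb. The subunit genes ranged from 1.74 kb at NFKB1 to 6.26 kb at RELA. TNF had 10.4 kb shared with RNA under 1 FPKM in both libraries. Its window lies in a dense gene region of chromosome 6, and which gene this H3K27ac belongs to was not tested. At the other end IL33 and PTGS2 had no H3K27ac in the window in either replicate. PTGS2 nevertheless had H3K4me3 at its promoter in both replicates.

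The ELR cluster on chromosome 4 shows these features side by side in 359 kb (chr4:74606236-74964913). Upstream of CXCL8, replicate 1 had H3K27ac peaks of 13056 bp (chr4:74563016-74576071) and 18548 bp (chr4:74579037-74597584), and replicate 2 had peaks of 9887 bp and 14340 bp within these limits. CXCL2 had H3K27ac over its start and a further peak of 8403 bp in replicate 1 and 5900 bp in replicate 2, which began 7467 bp and 8577 bp from its start. CXCL3 had H3K4me3 and H3K27ac over its start in both replicates. CXCL5 had H3K4me3 in both, but H3K27ac in replicate 1 only.

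**Figure D4:**
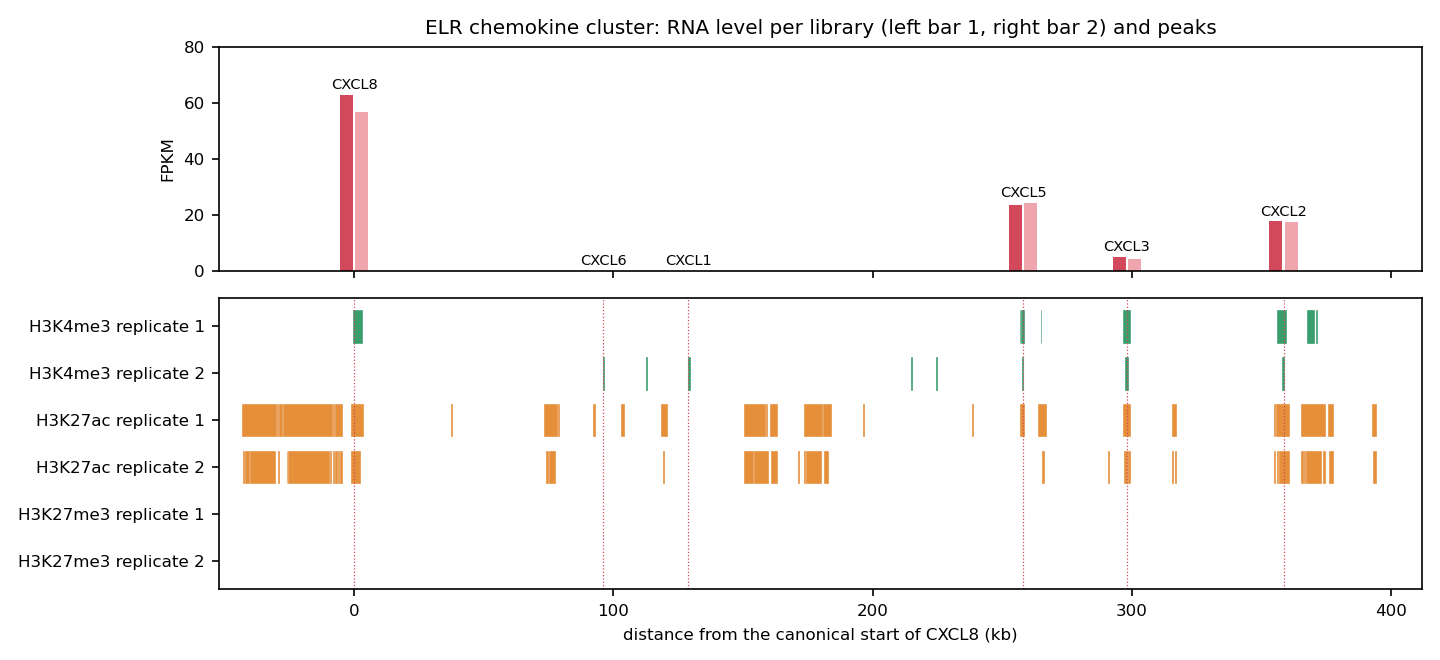
FPKM of the 6 ELR chemokine genes in each library (top, left bar library 1 and right bar library 2) and peaks of the 3 marks in each replicate (bottom), by distance in kb from the canonical start of CXCL8, with dotted lines at the gene starts. CXCL6 and CXCL1 lie between blocks of H3K27ac that are present in both replicates, with no H3K27ac at their own starts, and no H3K27me3 peak is present in the region.

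CXCL6 and CXCL1 lie in the middle of the cluster. Neither had H3K27ac within 1 kb of a start in either replicate, and each had H3K4me3 in replicate 2 only, with peaks of 494 bp and 793 bp. The nearest H3K27ac to the CXCL1 start lay at 7998 bp in replicate 1 and at 9250 bp in replicate 2. To its other side, beyond 21557 bp, the first neighbouring H3K27ac peaks were 3311 and 4500 bp wide in replicate 1 and 3521 and 4762 bp wide in replicate 2. CXCL1 therefore had 15.2 kb of shared H3K27ac within 50 kb, close to the 15.7 kb of CXCL2, and was listed at 0 FPKM where CXCL2 had 17.7 and 17.7 FPKM. No H3K27me3 peak lay closer to CXCL1 than 225907 bp. CXCL1 and CXCL6 were thus the genes of the cluster without H3K27ac at the start in either replicate, while the consensus letters are the same as in CXCL2, CXCL3 and CXCL5.

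Other genes of the pathway were taken from 5 lists of 85 genes in all, of which 50 were expressed, a share equal to the 58.8% of all protein-coding genes. All 22 adaptor and kinase genes were expressed, and 19 of them had active promoter marks. The IkB kinase genes CHUK, IKBKB and IKBKG stood at 11.4 and 13.4, 4.63 and 4.74, and 9.06 and 9.58 FPKM. The kinase gene IRAK1, downstream of interleukin 1 and Toll-like receptors, was the highest of the list with 96.1 and 90.7 FPKM. MAP3K14, which encodes the NF-kB-inducing kinase of the non-canonical pathway, had 16.2 and 16.3 FPKM. Of the 8 other inhibitors and deubiquitinases 7 were expressed, among them TNIP1 with 32.7 and 30.2 FPKM, and TNIP3 was listed at 0.

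Of the 16 receptors that feed the pathway, 8 were expressed, and these were mainly receptors of the TNF superfamily. TNFRSF12A, the receptor of TWEAK, had 204 and 189 FPKM. LTBR, the lymphotoxin beta receptor gene, had 64.3 and 56.6 FPKM, TNFRSF1A, the main TNF receptor gene, 40.2 and 44.6 FPKM, and CD40 29.3 and 30.9 FPKM. These 4 genes had active promoter marks. The interleukin 1 receptor genes IL1R1 and IL1RAP were lower, with 2.20 and 2.33 FPKM for the first and 3.67 and 3.74 FPKM for the second. Of the Toll-like receptor genes, TLR2 was expressed with 3.14 and 3.01 FPKM, while TLR4, the receptor of lipopolysaccharide, had 0.0873 and 0.135 FPKM.

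**Figure D5:**
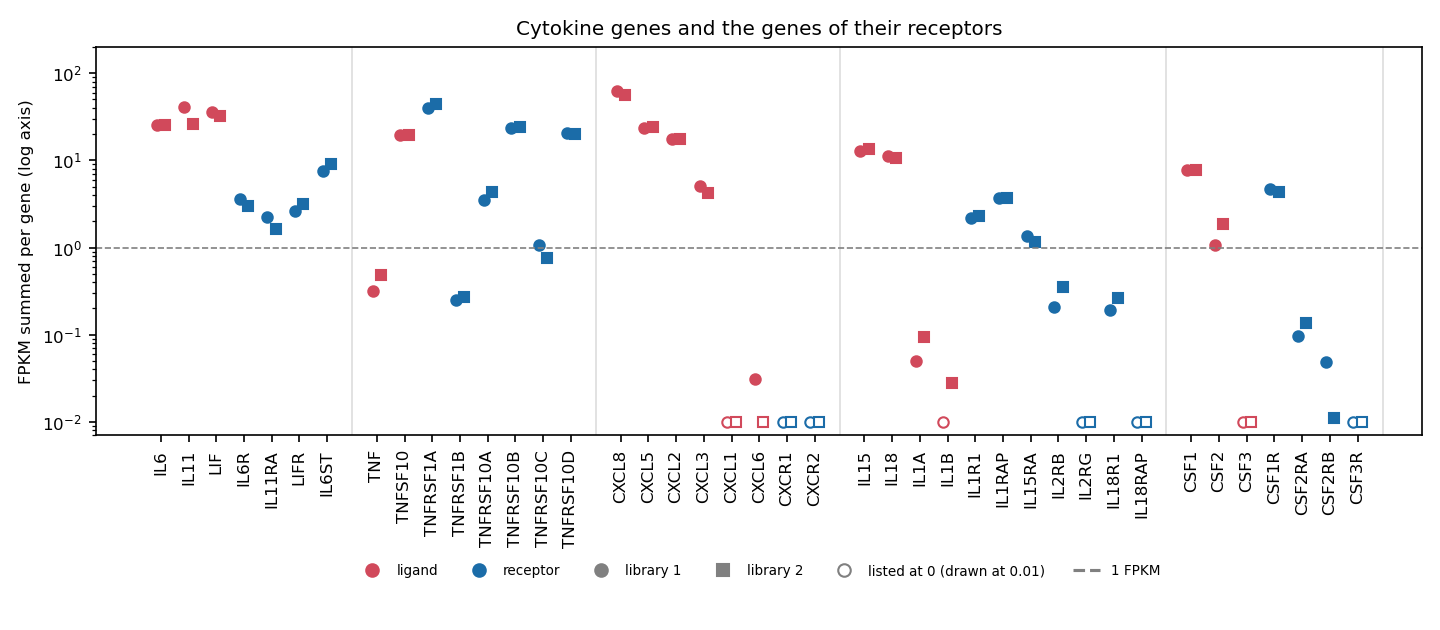
FPKM on a log axis of cytokine and chemokine genes (red) and the genes of their receptors (blue), with circles for library 1 and squares for library 2. Open symbols mark values listed at 0, drawn at 0.01, and the dashed line marks 1 FPKM. The IL6 family has ligand and receptor genes above 1 FPKM, whereas CXCR1 and CXCR2 are listed at 0 beside chemokine genes of up to 62.9 FPKM.

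Of 36 genes for receptors of the ligands described here, 13 were expressed, against the 58.8% of all protein-coding genes. A further 11 were listed at 0 in both libraries, as were 3850 of the 19646 protein-coding genes. No chemokine receptor was among the expressed: CXCR1, CXCR2, CXCR3, CCR6 and others were listed at 0, and CXCR4 had 0.0153 and 0 FPKM. By contrast the receptors of the IL6 family were all expressed. IL6ST, the shared signalling chain gp130, had 7.52 and 8.98 FPKM, IL6R 3.65 and 3.01 FPKM, IL11RA 2.25 and 1.63 FPKM, and LIFR 2.62 and 3.16 FPKM. For TNFSF10, the death receptor gene TNFRSF10B had 23.8 and 23.9 FPKM and the decoy receptor gene TNFRSF10D 20.6 and 20.3 FPKM, above the death receptor gene TNFRSF10A at 3.48 and 4.34 FPKM. IL15RA, the chain that presents interleukin 15, had 1.35 and 1.17 FPKM. ITGB2, the beta chain of the leukocyte integrin that binds ICAM1, had 13.0 and 12.1 FPKM, while its partner chain ITGAL had 0 and 0.0765 FPKM. CSF1R, the receptor gene of CSF1, had 4.66 and 4.30 FPKM, with H3K27ac at its promoter in both replicates and H3K4me3 in replicate 1 only.

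Of the 7 genes of caspase-1 processing, 3 were expressed. CASP1, whose enzyme cleaves the precursors of interleukin 1 beta and interleukin 18, was listed at 0 in both libraries, as were NLRP3 and IL1RN. This stood beside IL18 at 11.2 and 10.6 FPKM. The adaptor gene PYCARD had 8.35 and 7.85 FPKM, GSDMD, which encodes the pore protein gasdermin D, 12.9 and 12.7 FPKM, and IL18BP, the secreted inhibitor of interleukin 18, 3.32 and 4.72 FPKM. The receptor chain gene IL18R1 had 0.190 and 0.265 FPKM, and IL18RAP was listed at 0.

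Marker genes of tubule and of other cell types were read in the same libraries, and the part of other cells in the levels above was not tested. The epithelial keratin gene KRT8 had 179 and 184 FPKM, and 5 of the 6 epithelial markers were expressed. Of the tubular markers, PAX8 and GGT1 were expressed, whereas HNF4A, LRP2 and SLC22A6 were listed at 0, so RNA of these defining genes of the proximal tubule was not seen. Of the 9 leukocyte markers 2 were expressed, CD68 and CSF1R, with PTPRC and CD3E listed at 0. The summed leukocyte list was 47.7 and 41.5 FPKM, nearly all of it CD68. None of the 4 endothelial markers matched to the annotation was expressed. Of the 5 fibroblast markers, COL1A1 with 40.3 and 39.9 FPKM and LUM with 3.48 and 3.33 FPKM were expressed.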

How the data were processed

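For ChIP-seq the authors used hg19, Bowtie2 and MACS2; the 6 deposited lists, 1 per replicate, give position only, and no read depth for any one peak; the read totals and enrichment that the study lists per replicate were not used here. Replicate 1 of a mark has no number in its label and was numbered by order. Per the file headers, the deposited FPKM values came from StringTie 1.3.3 with GENCODE version 27, after HISAT2 mapping by the authors, for which the paper names hg19 although that annotation is on GRCh38. Aligned bases over annotated transcripts came to 4.54 and 4.42 Gb. FPKM was summed per gene and joined by Ensembl identifier to GENCODE version 44 on GRCh37, from which starts were taken; RNA-seq coordinates were not used. Peak ends fit hg19 chromosome lengths. Computation used Python 3.11.15, numpy 2.4.6, pandas 2.3.3 and matplotlib 3.10.9, and peak functions were tested on simulated data. No test was run, since there is 1 condition, and counts are set beside the share of all protein-coding genes. The 43 genes, the gene lists and the windows were chosen with earlier results of these data known. The rule named every member by role, the highest gene of each pathway list, a gene under 1 FPKM where all others pass, and expressed receptors of members; other genes were named after their values were seen. Alternatives covered thresholds, windows, starts, replicates, peak width and motif. The input DNA sample and the HiChIP samples were not analysed here. Some marker genes are not reported here.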

Additional observations from a re-analysis of the deposited data

How the results depend on the processing

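Of 64 alternatives, 56 left the count within 1.5 times that reported. Genes with H3K27me3 at the promoter went from 4 to 2 when peaks under 500 bp were left out. Genes with the NF-kB consensus went from 23 to 35 with 1 mismatch outside GGG and to 36 with any 5 bases between GGG and CC, but these looser patterns occur in 66.0% and 69.2% of all protein-coding promoters. Expressed genes of the 85 in the pathway lists went from 50 to 31 at 5 FPKM. The following alternatives were added after seeing the data. Genes with H3K27ac in both replicates and H3K4me3 missing from at least 1 went from 6 to 3 with either replicate, and were 3 to 7 with one replicate of each mark left out. Genes with 10 kb or more of shared H3K27ac went from 13 to 7 at 15 kb, where the share of protein-coding genes was 1.72%, and were 13 to 23 in a single H3K27ac replicate. In that of replicate 1 alone, with 23 genes, the share of protein-coding genes rose from 5.41% to 26.2%. No paired analysis was possible because no result comes from a test between groups. With 2 replicates and no score for a peak, depth limits what a missing peak can say.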

Other observations

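The base composition of the 250 bases before the start varied widely among the 43 genes. The 5 subunit genes had 68.4% to 79.6% G and C and 18 to 42 CG dinucleotides, with NFKB2 lowest, and each had H3K4me3 and H3K27ac in all replicates. Several expressed cytokine and chemokine genes had less, with 37.6% and 4 CG dinucleotides at CXCL8, 44.8% and 4 at LIF, and 45.6% and 5 at IL18. CCL20 had 46.8% and 3, IL6 had 47.6% and 4, and TNFSF10 had 49.6% and 2. Others of these roles came close to NFKB2, such as CXCL16 with 70.4% and IL11 with 67.2%. BIRC3, of the inhibitors and feedback genes, had 52.4%, so the roles overlapped. Of these low cytokine and chemokine genes, IL6 alone had H3K4me3 at the promoter in both replicates. Other expressed genes with few CG dinucleotides had it in both, with 1 at C3, 4 at IL32, 6 at CXCL5 and 7 at CX3CL1. CSF2, with 4, had it in replicate 2 only. Genes under 1 FPKM in both libraries were found at both ends, with 37.2% at CXCL11 and 78.0% at CXCL12, and both of these had H3K27me3. These values were looked at after the mark counts had been seen and are a description only.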
